A study of Mus musculus with 48 samples.

Results

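The genes described are Afp, Ttr, Apoa1, Apoa2, Apob, Apoe, Rbp4, Trf, Cubn and Amn, 8 of them coding for proteins that the visceral yolk sac and the liver secrete and 2 for an uptake receptor of the same tissue. They were chosen by name, and each matched 1 of the 36935 genes in the table of raw counts, so they make up 10 of 36935. RNA was measured in 48 libraries of the mouse embryonic stem cell line E14 on the way to neurons. The genotypes were E14 wildtype, KAT6A-/- KO, KAT6B-/- KO and KAT6A-/-; KAT6B-/- dKO, called the KAT6A knockout, the KAT6B knockout and the double knockout below. KAT6A and KAT6B are paralogous histone acetyltransferases. Each genotype was sampled at days 0, 2, 6 and 15, with 3 replicates from 3 independent differentiation experiments. Day 0 cells were stem cells kept in serum with LIF and had no treatment. Day 2 cells were embryoid bodies, floating aggregates formed without LIF. Day 6 cells were embryoid bodies that had received 10 µM all-trans retinoic acid from day 4. Day 15 cells had been dissociated at day 8, plated on poly-D-lysine and laminin, and grown with N2 and B27 supplements. At each day the 4 genotypes, E14 included, had the same medium and treatment, and all day 6 and day 15 groups had received retinoic acid, so no group shows those days without it. How the knockouts were made, and how many clones stand behind each line, is not given in the sources used here.

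The visceral endoderm is the outer epithelium of the early embryo and later of the yolk sac, and it also forms on the surface of embryoid bodies. It feeds the embryo before the liver works, secreting alpha-fetoprotein, transthyretin, transferrin, retinol-binding protein and lipoproteins, many of which the fetal liver makes later. The same cells take up maternal protein through cubilin, a large peripheral membrane protein that amnionless (Amn) anchors and carries to the cell surface. Parietal endoderm, the other extraembryonic endoderm, instead lays down a thick basement membrane of laminin, collagen IV and Sparc.

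Library totals ran from 22.5 to 72.23 M counts. For genes with many counts the spread between replicates set the precision, and for Afp and Ttr at day 0, and Apoa1 and Apoa2 at days 0 and 15, few counts limited it. Levels are in CPM, counts scaled to the total of each library and corrected for composition. The targeted genes were read first. Kat6a was lower in every KAT6A knockout library than in every E14 library of the same day (61 to 128 against 119 to 214 CPM over all days). Kat6b was lower in the KAT6B knockout than in E14 at day 0 (190 to 218 against 252 to 376 CPM) and at day 2 (88.1 to 134 against 165 to 247 CPM), with overlap at the later days, 6 and 15. Double knockout libraries had Kat6a also below every E14 library of the same day (74.8 to 129 CPM), and Kat6b overlapped E14 at each day. Kat6b was still called lower in the double knockout at day 0. Leaving out 1 library gave -0.81 to -0.50 on the log2 scale, and the call was lost in 3 of 6 fits. The library labelled KAT6B knockout replicate 1 of day 15 had 126 CPM of Kat6b, above the 3 E14 libraries of that day (90.3 to 105 CPM). A count over the whole gene does not show whether the transcript is intact. That library also stood apart in Lama1, a laminin chain, at 1704 CPM beside 14160 and 15063 CPM in the other two. The edgeR counts of called genes at day 15 that involve the KAT6B knockout, and its Amn difference, are therefore also given without it.

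In the E14 line most of these genes rose to day 6 and most fell from there to day 15. Between day 0 and day 6, 7 of the 10 genes rose (Afp, Ttr, Apoa1, Apoa2, Apob, Rbp4 and Cubn) and none fell, where 25.8% of the 20503 genes tested rose and 24.2% fell. The median change of the 10 was 3.46 on the log2 scale, and that of all genes tested was 0.05. Between day 6 and day 15, 7 of the 10 fell (Afp, Apoa1, Apoa2, Apob, Apoe, Rbp4 and Trf) and none rose, where 27.3% of all genes fell and 27.3% rose. The median of the 10 was -4.12 and that of all genes -0.05. By day 2, 3 of the 10 had risen (Ttr, Apob and Cubn), with 9.5% of all genes higher and 12.1% lower. Calls are at an adjusted p under 0.05 in edgeR's quasi-likelihood test. Apoa2, counted in both steps, passed the expression filter only through its day 6 libraries. Its E14 groups held 13, 31 and 8 counts at days 0, 2 and 15. Without that filter, 7 of the 10 were also called in each of the 2 steps. In these bulk libraries, fewer cells of a type and less RNA per cell cannot be told apart.

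**Figure D1:**
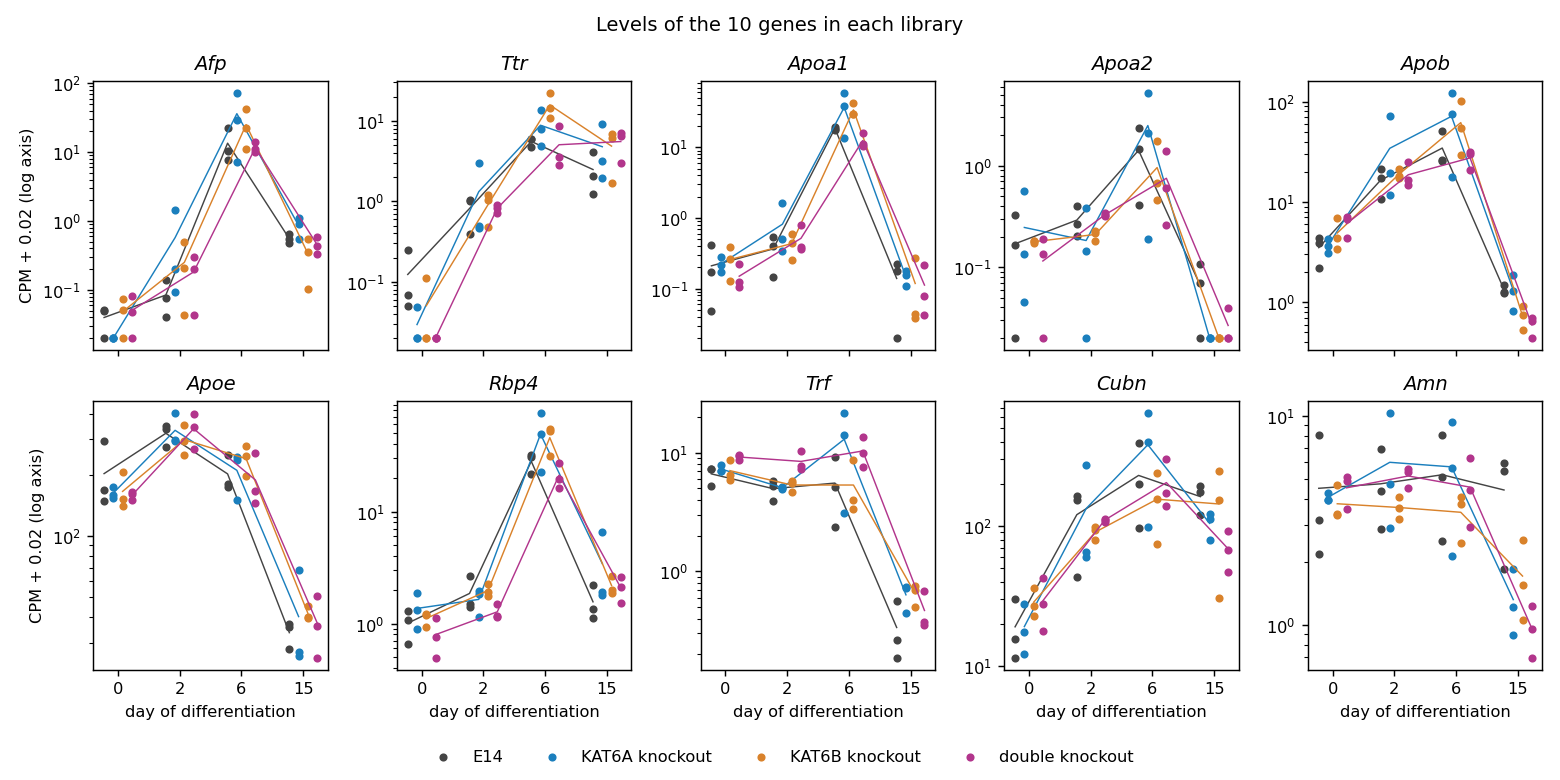
Each point is 1 library, each line joins the means of a genotype, and the log axis shows CPM + 0.02, so a library with no count sits at 0.02. In all 4 genotypes the mean of Afp was lowest at days 0 and 2, and single libraries lay between 7.24 and 71.6 CPM at day 6 and between 0.0842 and 1.1 CPM at day 15, while Cubn stayed at 30.8 CPM or above at day 15.

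The carriers of the blood plasma come first. Afp, the fetal counterpart of albumin, had 0, 0.0288 and 0.0304 CPM in E14 replicates 1, 2 and 3 at day 0, and 0.117, 0.055 and 0.0206 CPM at day 2. At day 6 it had 10.4, 22.4 and 7.66 CPM, and at day 15 0.625, 0.454 and 0.52 CPM. The 3 libraries of day 6 lay above all others of this line, and those of day 15 above those of days 0 and 2. The day 0 group held 2 counts of Afp and the day 6 group 1658, a ratio of levels of 727 with a 95% counting interval of 201 to 6006. This ratio pools the 3 libraries of a day without the composition correction, and its interval leaves out the spread between replicates. The fall to day 15 was -4.64 ± 0.46 on the log2 scale (SE, adjusted p = 1.75e-06). Rbp4, the protein that carries retinol in plasma, had 0.633, 1.27 and 1.06 CPM at day 0 and 31.7, 31 and 21.7 CPM at day 6. By day 15 it was back at 2.19, 1.33 and 1.11 CPM. The rise was 4.81 ± 0.37 (adjusted p = 6.33e-07) and the fall -4.18 ± 0.35 (adjusted p = 4.56e-07).

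Ttr, which carries thyroid hormone and binds the retinol carrier Rbp4, had 0.0487, 0.231 and 0.0304 CPM at day 0, 1.02, 0.991 and 0.371 CPM at day 2, and 4.7, 5.9 and 5.99 CPM at day 6. It had 2.04, 4.14 and 1.21 CPM at day 15. Its rise to day 2 was 2.78 ± 0.71 (adjusted p = 0.0145), and its rise from day 0 to day 6 was 5.62 ± 0.69 (adjusted p = 2.05e-05). The day 2 call was lost in 3 of the 6 fits that left out 1 library, without E14 day 0 replicate 3 (adjusted p = 0.0736) and without day 2 replicate 1 (0.0529) or 2 (0.0533). Every day 15 library was below every day 6 library, and the change of -1.15 ± 0.49 did not pass (adjusted p = 0.0637). It passed without E14 day 15 replicate 2 (-1.79, adjusted p = 0.0112) and in DESeq2 (adjusted p = 0.0483). Trf, transferrin, the iron carrier, behaved differently from the other carriers at the start. It had 7.31, 7.3 and 5.17 CPM in stem cells and 5.09, 9.13 and 2.33 CPM at day 6, ranges that overlap. It fell to 0.168, 0.539 and 0.243 CPM at day 15, a change of -4.06 ± 0.52 (adjusted p = 1.84e-05).

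The apolipoproteins make the particles that carry lipid. Apoa1, the main protein of high-density lipoprotein, had the tightest day 6 values of the 10 genes in E14, 18.2, 19.4 and 17.8 CPM, where the highest was 1.09 times the lowest. It had 0.39, 0.0288 and 0.152 CPM at day 0 and 0, 0.202 and 0.156 CPM at day 15. The rise was 6.78 ± 0.71 (adjusted p = 6.70e-06) and the fall -7.12 ± 0.70 (adjusted p = 1.66e-06). Apoa2, the second protein of that particle, was low throughout. It had 0.146, 0 and 0.304 CPM at day 0, 1.45, 2.36 and 0.388 CPM at day 6, and 0, 0.0505 and 0.0867 CPM at day 15. Its rise was 3.21 ± 0.93 (adjusted p = 0.0111), and it fell by 4.73 ± 1.00 (adjusted p = 0.00115).

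Apob, the scaffold of very-low-density and low-density lipoprotein, was already above its day 0 level at day 2. It had 2.19, 4.36 and 3.89 CPM at day 0, 17.3, 21.2 and 10.7 CPM at day 2, and 26.3, 51.1 and 25.8 CPM at day 6. At day 15 the 3 libraries had 1.23, 1.25 and 1.47 CPM, below all stem cell libraries. Its change was 2.21 ± 0.34 to day 2 (adjusted p = 9.46e-04), 3.31 ± 0.35 from day 0 to day 6 (6.47e-06) and -4.69 ± 0.37 from day 6 to day 15 (2.59e-07). Apoe, the ligand by which remnants are cleared and a lipid carrier of the brain, was abundant from the start. It had 292, 149 and 168 CPM at day 0, 348, 338 and 275 CPM at day 2, and 181, 251 and 175 CPM at day 6, with no call in either comparison with day 0 (adjusted p = 0.0648 at day 2 and 0.992 at day 6). Without E14 day 0 replicate 1, the day 2 change was called (1.01, adjusted p = 0.00414). It dropped to 36.8, 35.8 and 28 CPM at day 15 (-2.58 ± 0.25, adjusted p = 1.33e-06). Astrocytes also make Apoe, and 6 of 7 astrocyte markers tested rose in the same step. Summed over all 8 markers, the E14 libraries had 224 to 287 CPM at day 6 and 516 to 835 CPM at day 15. The same sum was 313 to 379 CPM at day 0 and 628 to 844 CPM at day 2. A high sum was thus not particular to day 15. The part of astrocytes in the Apoe level was not tested.

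The uptake pair did not move together. Cubn had 30.1, 15.6 and 11.5 CPM at day 0, 153, 165 and 43.3 CPM at day 2, and 199, 392 and 97.5 CPM at day 6. Its rise was 2.65 ± 0.56 to day 2 (adjusted p = 0.0058) and 3.61 ± 0.58 from day 0 to day 6 (adjusted p = 2.05e-04). At day 15 it still had 119, 175 and 192 CPM, and the change from day 6 was -0.48 ± 0.52 (adjusted p = 0.45). Amn, its partner, had 8.09, 2.16 and 3.16 CPM at day 0, 5.06, 8.02 and 2.5 CPM at day 6, and 1.83, 5.42 and 5.91 CPM at day 15. The Amn values overlapped between all 4 days, and no E14 change passed (adjusted p = 0.96, 0.755 and 0.768 for the 3 comparisons).

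**Figure D2:**
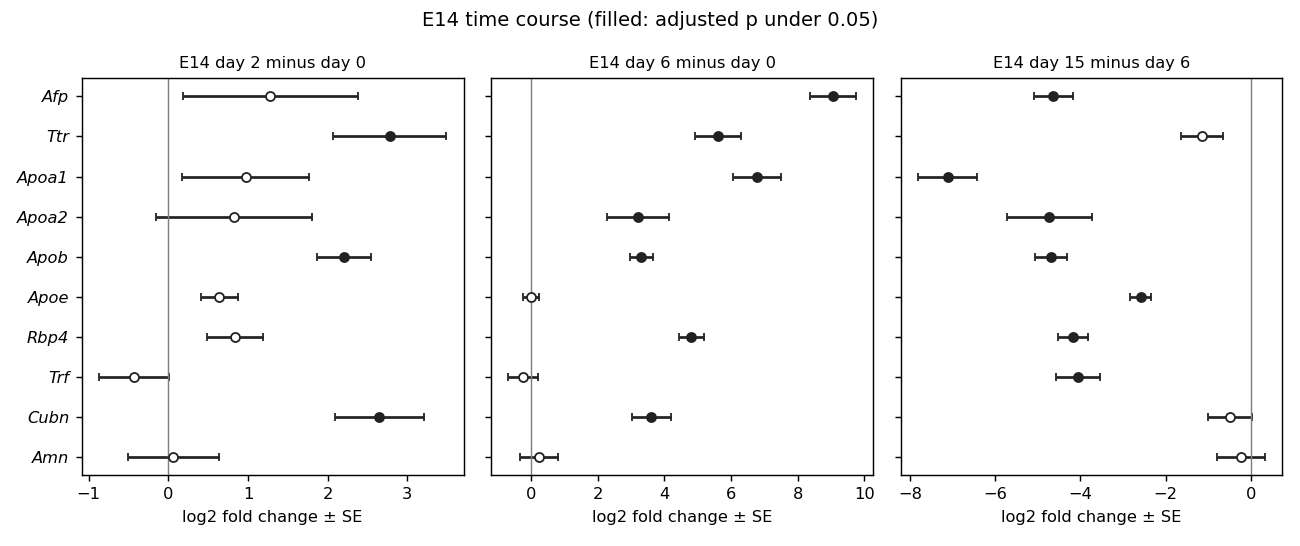
Log2 fold changes (x axis) of the 10 genes in E14 with their standard errors, filled where the adjusted p was under 0.05. At day 6, 7 genes are filled to the right of 0, from 3.21 (Apoa2) to 9.06 (Afp), and from day 6 to day 15, 7 are filled to the left. The fitted value of Afp rests on 2 counts at day 0 and depends on the prior count.

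Levels of different genes can be compared only per length. Per kilobase of exon in E14 at day 6, Apoe stood highest at 94.7 ± 19.8 CPM (SD, n = 3), followed by Rbp4 at 20.9 ± 4.16, Cubn at 15.4 ± 10 and Apoa1 at 15 ± 0.688. The mean ± SD of Cubn overlapped those of Rbp4 and Apoa1. Lower values were found for Ttr (4.66 ± 0.611), Afp (4 ± 2.32), Amn (2.82 ± 1.5), Apoa2 (2.6 ± 1.84), Apob (2.47 ± 1.04) and Trf (1.66 ± 1.03), and the ranges of mean ± SD of neighbours overlap among these 6. Apob and Cubn have very long messenger RNAs, with 13934 and 14935 exon bases. Exon lengths were from GENCODE release M21 on GRCm38.

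The 4 promoters printed here belong to genes whose levels carry the time course. Afp, Apoa1 and Apob rose and fell, and Cubn rose and had no call from day 6 to day 15. Each is the stretch of 250 bases before the start listed by RefSeq on GRCm38.p6, read 5′ to 3′ on the strand of the gene, with matches to the searched motifs in capitals.
Afp, chr5:90490464-90490713 (plus strand): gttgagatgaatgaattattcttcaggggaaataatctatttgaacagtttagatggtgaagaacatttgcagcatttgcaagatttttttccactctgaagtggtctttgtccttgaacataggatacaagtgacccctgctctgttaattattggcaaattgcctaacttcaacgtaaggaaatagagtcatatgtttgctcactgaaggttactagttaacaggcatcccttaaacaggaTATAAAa
Apoa1, chr9:46228380-46228629 (plus strand): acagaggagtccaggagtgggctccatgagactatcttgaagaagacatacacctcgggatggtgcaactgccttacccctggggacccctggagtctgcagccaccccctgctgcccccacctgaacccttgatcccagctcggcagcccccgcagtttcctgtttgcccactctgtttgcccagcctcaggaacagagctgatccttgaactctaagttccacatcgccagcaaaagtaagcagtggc
Apob, chr12:7977427-7977676 (plus strand): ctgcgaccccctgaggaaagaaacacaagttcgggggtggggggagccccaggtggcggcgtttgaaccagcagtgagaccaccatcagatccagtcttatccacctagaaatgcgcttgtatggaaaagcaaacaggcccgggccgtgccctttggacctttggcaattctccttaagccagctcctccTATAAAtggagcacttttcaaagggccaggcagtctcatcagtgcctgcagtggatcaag
Cubn, chr2:13491877-13492126 (minus strand): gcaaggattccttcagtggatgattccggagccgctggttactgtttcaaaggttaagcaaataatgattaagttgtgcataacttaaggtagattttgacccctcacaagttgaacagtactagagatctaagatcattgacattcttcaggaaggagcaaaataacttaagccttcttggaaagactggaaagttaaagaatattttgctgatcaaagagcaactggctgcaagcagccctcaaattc
The motifs searched on both strands were AGATAA for the GATA factors, TGTTTAC for the FOXA factors, CAAAGTCCA for HNF4 and TATAAA for the TATA box. RefSeq listed a promoter for 8 of the 10 genes (12 promoters), Ttr and Trf being the others. TATAAA was found before Afp, Apoa2, Apob, Apoe and Rbp4, and in 12.4% of 32851 promoters of the same length. In Apoe it matched on both strands, at positions that overlap. In Afp it lay 7 to 2 bases before the listed start and in Apob 60 to 55 bases before it. TGTTTAC was found before Apoa2 and Rbp4 and in 3.17% of all promoters. In Rbp4 it lay in a different listed promoter from TATAAA. Genes were counted by any of their listed promoters and the percentages by promoter, so the 2 are unlike shares. AGATAA (9.99% of all) and CAAAGTCCA (0.384%) were not in the windows of these 8 genes, which says only that these letters are not there. Apoa1 and Cubn, the first called in both directions and the second in 1, had none of the 4 motifs.

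In the deposited coordinates (GRCm39), Afp lies on chromosome 5 from 90638596 to 90656766, Apoa1 on chromosome 9 from 46139878 to 46141764, Apob on chromosome 12 from 8027648 to 8066835, Cubn on chromosome 2 from 13281149 to 13496624 and Amn on chromosome 12 from 111237529 to 111242860. Afp overlaps Gm43449 and Cubn overlaps Gm13270 on the other strand. The libraries were strand-specific, and whether the counting used the strand is not given in the sources used here, so reads of these pairs may be shared.

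Genes of the same tissue were then read in E14. Of 17 other secreted proteins of yolk sac and liver that were tested, 12 rose and 1 fell from day 0 to day 6, and 2 rose and 7 fell from day 6 to day 15. Summed over all 23 genes of this list, the E14 libraries had 103 to 107 CPM at day 6. The sum did not fall to day 15, when it was 107 to 118 CPM. Serpinf2, the inhibitor of plasmin, fell by 6.72 ± 0.39 in the second step (adjusted p = 2.95e-08), from a mean of 15 to 0.136 CPM. Fga, a fibrinogen chain, was at 0 in the 3 day 0 libraries, had 1.94, 2.99 and 0.481 CPM at day 6 and 0, 0.0505 and 0 CPM at day 15. Alb, the main plasma protein of the later liver, stayed between 0 and 0.206 CPM in all 48 libraries and had no count in 35 of them. Cyp2e1, an enzyme of mature hepatocytes, had no count in 47 of the 48. Of 6 markers of gut endoderm and hepatocytes tested, 1 rose and 2 fell at day 6, and 5 fell by day 15. The 2 that fell at day 6 were Cdx2 and Sox2. Over the 48 libraries Sox2 reached 506 CPM and Cdx2 15.3 CPM. The whole list summed to 382 to 521 CPM in E14 stem cells, which thus already expressed Sox2.

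Among 11 partners of lipoprotein assembly and exchange tested, 3 rose and 2 fell at day 6, then 3 rose and 6 fell. Mttp, which loads lipid onto Apob, rose from 6.29, 7.18 and 7.05 CPM to 35.1, 39.9 and 24.6 CPM (2.29 ± 0.20, adjusted p = 1.64e-06). It had 11.5, 9.27 and 9.81 CPM at day 15. Apoa4, which lies in the same gene cluster as Apoa1, had no count at day 0, 5.52, 6.77 and 2.35 CPM at day 6 and 0.0721, 0.0842 and 0.277 CPM at day 15. Of 12 uptake receptors and adaptors, 7 rose and 2 fell at day 6, and 6 rose and 3 fell from day 6 to day 15. Stra6, the receptor of Rbp4, rose from 1.41, 1.41 and 1.64 CPM to 55.4, 43.7 and 60.2 CPM (5.17 ± 0.25, adjusted p = 3.72e-08). It had 48.4, 71.2 and 53.2 CPM at day 15, when Rbp4 itself was near 1 to 2 CPM. Dab2, the endocytic adaptor of cubilin and megalin, rose by 1.96 ± 0.33 to day 6 (adjusted p = 2.63e-04) and by a further 2.11 ± 0.32 to day 15 (adjusted p = 9.57e-05).

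Endoderm transcription factors went both ways. From day 0 to day 6, 10 of 15 tested rose and 3 fell, among them Foxa1 (4.54 ± 0.53, adjusted p = 1.43e-05) and Prox1 (4.49 ± 0.33, adjusted p = 5.12e-07). From day 6 to day 15, 5 rose and 2 fell, where 27.3% of all genes rose and 27.3% fell. Foxa1, a pioneer factor of liver and gut, had 19.2, 12.1 and 25.1 CPM at day 6 and 1.03, 0.252 and 0.607 CPM at day 15 (-4.91 ± 0.53, adjusted p = 3.98e-06). Gata4 went from 59.6, 48.9 and 63.4 CPM to 286, 388 and 234 CPM (2.42 ± 0.25, adjusted p = 3.12e-06), and Foxa2 from 12.4, 9.64 and 13.5 CPM to 53.9, 65.9 and 44 CPM (2.22 ± 0.44, adjusted p = 7.77e-04).

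Markers of parietal endoderm followed yet another course. Of 10, 8 rose from day 0 to day 6 and 9 rose from day 6 to day 15, with none lower in either step. Thbd, thrombomodulin, went from 1.97, 1.95 and 3.83 CPM to 154, 247 and 178 CPM (6.21 ± 0.31, adjusted p = 1.16e-08). Lama1 reached 5442, 10900 and 6344 CPM at day 15 (3.41 ± 0.40, adjusted p = 9.77e-06). Summed over the 10 markers, the E14 libraries had 2305 to 5262 CPM at day 6 and 25418 to 46774 CPM at day 15. The sum of the 10 yolk sac genes went from 356 to 792 CPM to 164 to 231 CPM. Apoe and Cubn made up most of that sum, with means of 202 and 230 CPM at day 6 and 33.5 and 162 CPM at day 15. The part of parietal endoderm cells in the yolk sac levels was not tested.

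**Figure D3:**
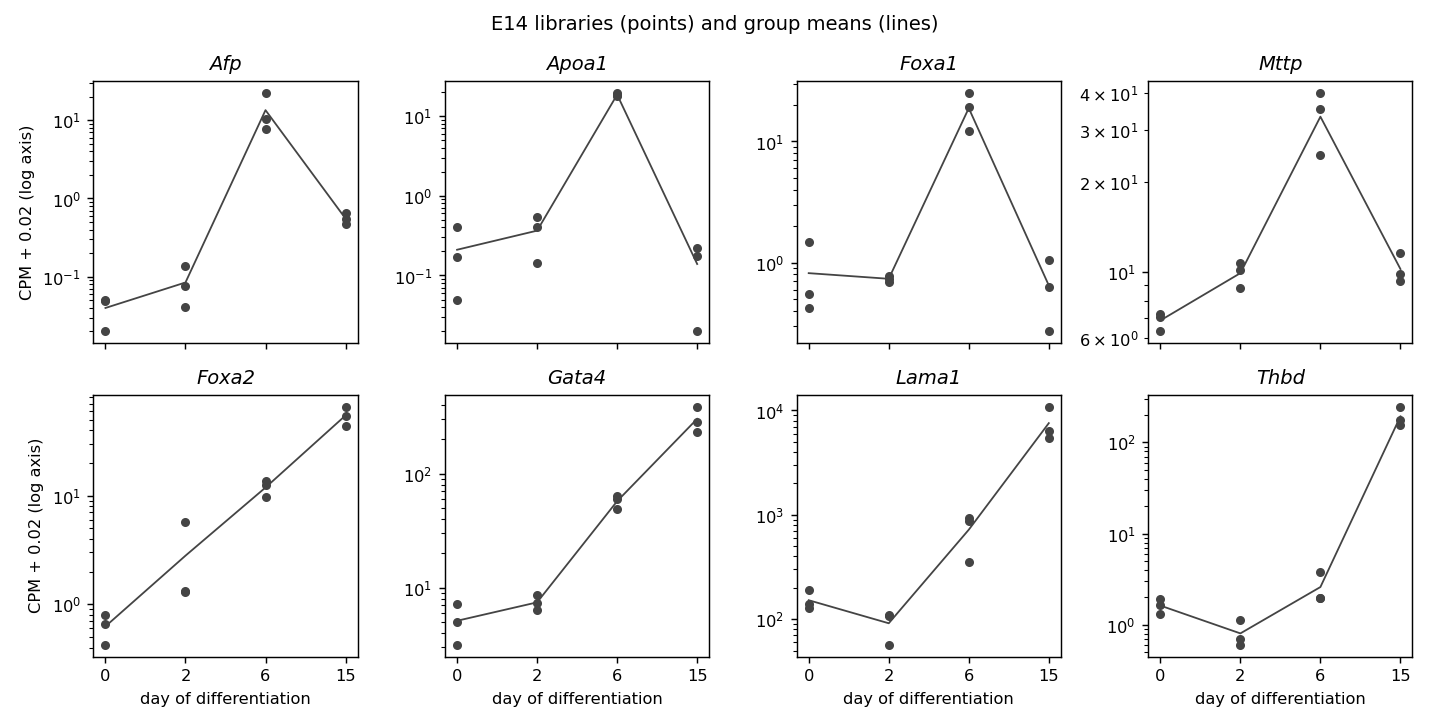
E14 libraries (points) and group means (lines) by day of differentiation, CPM + 0.02 on log axes that differ between panels. Afp, Apoa1, Foxa1 and Mttp are highest at day 6 and low again at day 15, whereas Foxa2, Gata4, Lama1 and Thbd are highest at day 15.

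The choroid plexus, the brain epithelium that makes cerebrospinal fluid, also expresses Ttr. Of 11 of its markers tested in E14, 5 rose and 3 fell from day 6 to day 15. Aqp1, a water channel, rose by 2.90 ± 0.58 (adjusted p = 0.00115). Slc4a5 fell, with changes of -4.49 to -3.30 over the 6 fits that left out 1 library, all called. Levels were uneven over the list: Kcnj13, a potassium channel, had no count in 45 of the 48 libraries, while Clic6 reached 92.6 CPM and Folr1 64.6 CPM. Summed over 12 choroid plexus markers, the day 15 libraries of all genotypes had 43.8 to 87.9 CPM. The sum was 118 to 173 CPM at day 0, 230 to 365 CPM at day 2 and 79.7 to 137 CPM at day 6. Ttr itself ranged from 1.21 to 9.13 CPM in those 12 libraries, and the part of such cells in it was not tested. The 8 markers of microglia and macrophages, which also express Apoe, summed to at most 12.4 CPM at day 15.

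Over the 16 group means, the 10 genes had a shared shape only in part. The Pearson r of log2 CPM was 0.97 between Afp and Rbp4, 0.94 between Apoa1 and Rbp4 and 0.91 between Apoa2 and Apob. It was 0.05 between Cubn and Amn, and 0.02 between Afp and Apoe, whereas Apoe and Trf had 0.90. Among 14311 other genes, the means most like the average course of the 10 were those of Dennd6a (r = 0.971), Mpnd (0.967), Atp2c2 (0.966), Enox2 (0.961), Odf2l (0.961), Rasl12 (0.961), Pygl (0.959) and Apoa4 (0.958). These values describe 16 groups that share 4 days. Apoe and Trf had no day 6 peak in E14, and both were lowest at day 15 (means of 33.5 and 0.317 CPM). Most of the shape of the average course is the day 6 peak. Dennd6a, for example, went from 48.1 to 86 and back to 42.2 CPM in E14.

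In some groups, 1 library was the highest or lowest for most of the 10 genes. In the KAT6A knockout at day 6, replicate 2 was the highest for 10 of 10 genes and replicate 3 the lowest for 10 of 10. Afp had 29.7, 71.6 and 7.24 CPM there, the highest 9.88 times the lowest, and Cubn had 399, 642 and 98.2 CPM. In E14 at day 6, replicate 2 was the highest for 8 genes and replicate 3 the lowest for 9. In the KAT6B knockout at day 6, replicate 3 was the highest for 7 genes and replicate 1 the lowest for 7. The double knockout had no such library, with at most 5 highest and 5 lowest genes in 1 replicate. These differences limit what a comparison of genotypes can show at day 6, since the 10 genes of a library are not separate replicates.

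**Figure D4:**
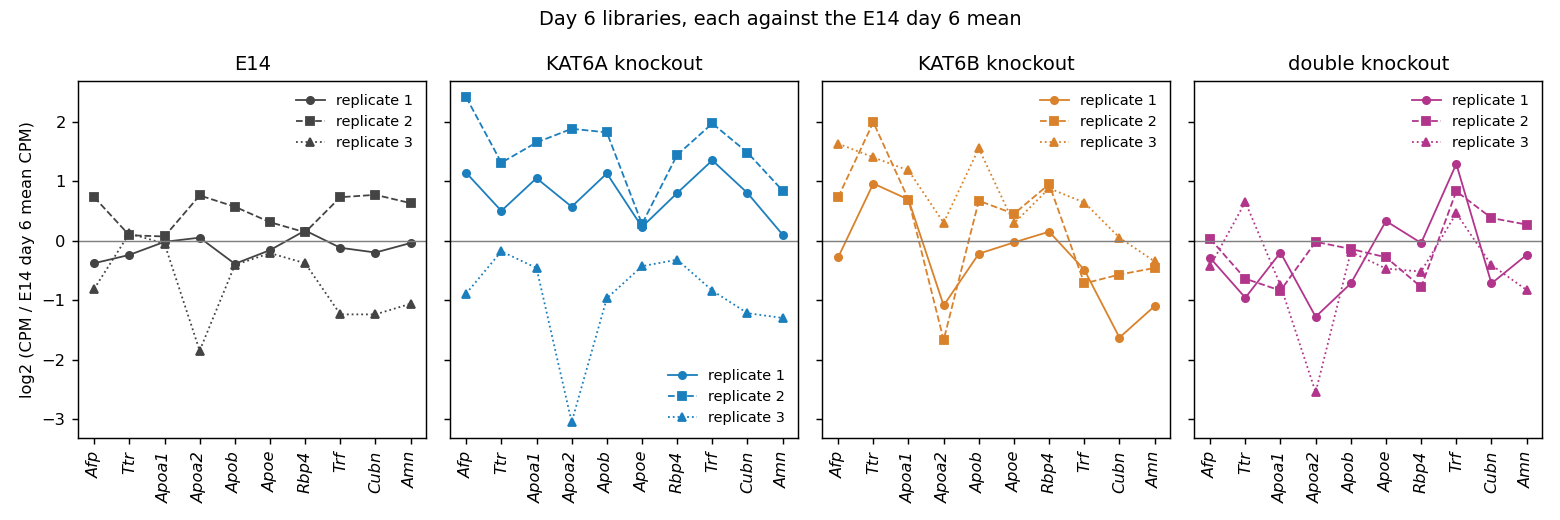
Each line is 1 day 6 library, and the y axis is the log2 ratio of its CPM to the E14 day 6 mean for each of the 10 genes. The 3 lines of the KAT6A knockout do not cross, replicate 2 lying above 1 and 1 above 3, while those of the double knockout cross repeatedly.

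The comparison of each knockout with E14 asks whether losing the acetyltransferases alters these genes. In stem cells, 6 of the 10 had enough counts to be tested, Afp, Ttr, Apoa1 and Apoa2 being too low, and edgeR called 0 of the 6 in each knockout. Among all 18935 genes tested at day 0, 0% were called in the KAT6A knockout, 0.0106% in the KAT6B knockout and 2.09% in the double knockout. Unadjusted p was under 0.05 for 0, 0 and 2 of the 6 (4.75%, 11.8% and 18.2% of all genes), and DESeq2 called 0 in each (7, 233 and 1125 over all genes). Apob had 7.04, 4.37 and 6.71 CPM in the double knockout and 2.19, 4.36 and 3.89 CPM in E14. The groups were separated by only 4.37 against 4.36 CPM, and the difference was 0.75 ± 0.31 (adjusted p = 0.217). Trf had 9.52, 8.62 and 9.32 CPM in the double knockout, each above the E14 libraries (0.44 ± 0.20, adjusted p = 0.261).

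At day 2 all 10 genes were tested and edgeR called 0 in each knockout. Of the 19594 genes, 0.0102% were called in the KAT6A knockout, 0% in the KAT6B knockout and 1.12% in the double knockout. At an unadjusted p under 0.05 the counts were 1, 0 and 1 of 10 (10.3%, 4.06% and 12.7% of all genes). DESeq2 called 0, 0 and 1 (35, 23 and 658 over all genes). Trf had 10.2, 7.29 and 7.73 CPM in the double knockout and 5.26, 3.88 and 5.7 CPM in E14, without overlap (0.73 ± 0.21, adjusted p = 0.115). DESeq2 called this difference (adjusted p = 0.019). In the KAT6A knockout, replicate 2 alone was high, with 1.41 CPM of Afp beside 0.178 and 0.0745, and 71.5 CPM of Apob beside 11.8 and 19.3.

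At day 6, where most of the genes, though not Apoe and Trf, had their highest mean in E14, edgeR again called 0 of 10 in each knockout. Of 20533 genes, 0% were called in the KAT6A knockout, 0.0292% in the KAT6B knockout and 0.0682% in the double knockout. At an unadjusted p under 0.05 the counts were 1, 2 and 0 of 10 (5.3%, 13% and 8.12% of all genes). DESeq2 called 0, 1 and 0 (3, 548 and 256 over all genes). The fitted differences from E14 were above 0 for 10 of 10 genes in the KAT6A knockout (median 0.79), for 6 of 10 in the KAT6B knockout (median 0.48) and for 1 of 10 in the double knockout (median -0.25). The medians over all genes were between -0.02 and 0. All 3 comparisons share the E14 libraries, and the 10 genes of the KAT6A knockout share the 2 libraries with high values.

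Apoa1 had 38.4, 58.1 and 13.4 CPM in the KAT6A knockout at day 6, which spans the E14 values (0.96 ± 0.39, adjusted p = 0.809). It had 29.8, 29.7 and 41.8 CPM in the KAT6B knockout, all above E14 (0.88 ± 0.39, adjusted p = 0.367). In the double knockout it had 16, 10.3 and 11 CPM, all below E14 (-0.61 ± 0.39, adjusted p = 0.759). Ttr had 10.7, 22 and 14.5 CPM in the KAT6B knockout, each above the E14 libraries, a difference of 1.51 ± 0.44 (adjusted p = 0.188). DESeq2 called it (1.52, adjusted p = 0.0176). Rbp4 had 48.8, 76.2 and 22.4 CPM in the KAT6A knockout, 31.1, 54.2 and 51.9 CPM in the KAT6B knockout and 27.4, 16.3 and 19.6 CPM in the double knockout, and each set overlapped E14.

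Set against each other at day 6, the knockouts had 0 of 10 genes called in each pair by edgeR, where 0.00974% of all genes were called for the double against the KAT6A knockout, 0% for the double against the KAT6B knockout and 0.00974% for the KAT6B against the KAT6A knockout. Unadjusted p was under 0.05 for 4, 3 and 0 of the 10 (2.45%, 13% and 13.7% of all genes). DESeq2 called 1, 3 and 0 (11, 658 and 429 over all genes). The 3 that DESeq2 called lower in the double than in the KAT6B knockout were Ttr (-1.69), Apoa1 (-1.49) and Rbp4 (-1.16). For each of them the groups did not overlap. The share of all genes without overlap was not counted, so this separation cannot be read as particular to them. With edgeR, the adjusted p for these was 0.134, 0.143 and 0.217. For Apoa1 in the double against the KAT6A knockout the difference was -1.57 ± 0.40 (adjusted p = 1). Without KAT6A knockout replicate 3 it was -1.96 (adjusted p = 0.00852), a call that rests on leaving out the lowest library.

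At day 15, 8 of the 10 genes were tested, Apoa1 and Apoa2 being too low. Apoa2 had no count in the KAT6A and KAT6B knockouts, which allows up to 0.0209 and 0.0218 CPM by counting error alone. In the double knockout edgeR called 1 of 8 lower, Amn, and none higher, where 1.32% of 20225 genes were called lower. Over both directions it called 643 of all genes. At an unadjusted p under 0.05 the count was 3 of 8 (24.6% of all genes), and DESeq2 called 2 (2724 over all genes). Amn had 0.931, 0.675 and 1.21 CPM in the double knockout and 1.83, 5.42 and 5.91 CPM in E14, without overlap, and the difference was -2.24 ± 0.51 (adjusted p = 0.0452). This call was lost in each of the 6 fits that left out 1 library of either group (-2.59 to -1.96, adjusted p = 0.0872 to 0.15). Amn had 1.2, 0.869 and 1.82 CPM in the KAT6A knockout, below E14 by 1.76 ± 0.50 on the log2 scale (adjusted p = 0.313). It had 1.52, 2.51 and 1.03 CPM in the KAT6B knockout (-1.40 ± 0.50, adjusted p = 0.167), or -1.35 without replicate 1 (adjusted p = 0.139).

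Other markers moved in the same libraries. Of 7 astrocyte markers tested, 4 were lower in the double knockout than in E14 at day 15, and the summed level of all 8 was 135 to 189 CPM against 516 to 835 CPM. Slc1a3, a glutamate transporter of glia, differed by -3.02 ± 0.47 (adjusted p = 0.0218), a call lost in the 6 fits that left out 1 library. The astrocyte sum at day 15 was also below E14 in the KAT6A knockout (193 to 330 CPM) and the KAT6B knockout (213 to 238 CPM). The parietal endoderm markers summed to 56258 to 77326 CPM in the double knockout against 25418 to 46774 CPM in E14. Sparc had 12285, 11975 and 12741 CPM there and 3906, 6723 and 4041 CPM in E14 (1.32 ± 0.43, adjusted p = 0.105). The parietal sum was 37811 to 79711 CPM in the KAT6A knockout and 11241 to 63853 CPM in the KAT6B knockout, both ranges overlapping E14. The part of these shifts in the Amn difference was not tested.

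Cubn had 67.3, 46.9 and 92 CPM in the double knockout at day 15, below the E14 libraries (-1.25 ± 0.56, adjusted p = 0.201). In the KAT6B knockout it had 30.8, 246 and 154 CPM, the low value in the library that stood apart. Apob had 0.636, 0.42 and 0.672 CPM in the double knockout, also below E14, with a difference of -1.21 ± 0.38 (adjusted p = 0.0962). DESeq2 called it (-1.26, adjusted p = 0.0147). In the single knockouts edgeR called 0 of 8 genes, with 0% of all genes called in the KAT6A knockout and 0.0742% in the KAT6B knockout. Without KAT6B knockout replicate 1, edgeR still called 0 of these genes in that knockout, while its count over all genes went from 15 to 1946. At an unadjusted p under 0.05 the counts were 2 and 2 of 8 (11.4% and 20% of all genes), and DESeq2 called 1 in each, Amn in both (-1.78, adjusted p = 0.034, and -1.44, adjusted p = 0.0486). Over all genes DESeq2 called 335 in the KAT6A and 1839 in the KAT6B knockout.

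**Figure D5:**
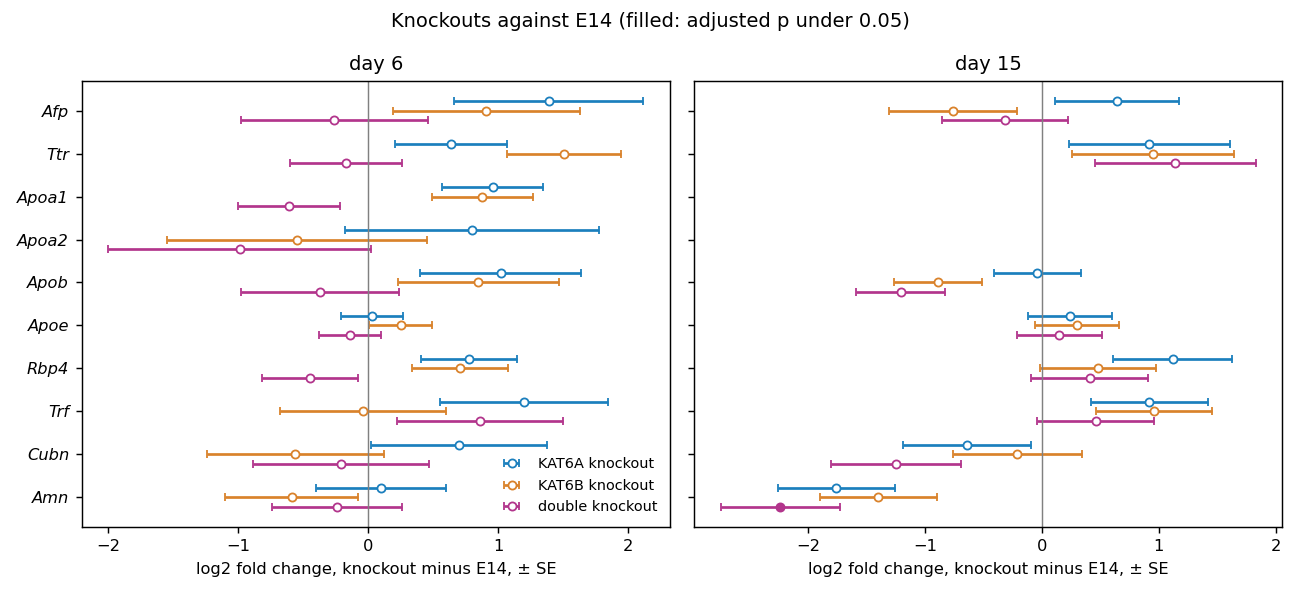
Log2 differences between each knockout and E14 (x axis) with their standard errors at days 6 and 15, filled where the adjusted p was under 0.05. The Amn value of the double knockout at day 15 (-2.24) is the 1 filled point, and Apoa1 and Apoa2 were too low to be tested at day 15.

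Between the knockouts at day 15, edgeR and DESeq2 called 0 of 8 genes in each pair. Apob had 1.26, 1.83 and 0.795 CPM in the KAT6A knockout, each above the double knockout libraries (-1.17 ± 0.38 for the double minus the KAT6A knockout, adjusted p = 0.85). Of all genes, 0.00494% were called for the double against the KAT6A knockout and 0% for each of the other pairs. The counts at an unadjusted p under 0.05 were 1 for the double against the KAT6A knockout, 0 for the double against the KAT6B knockout and 2 for the KAT6B against the KAT6A knockout (5.05%, 4.67% and 3.87% of all genes). Whether a knockout effect changed from day 6 to day 15 was tested as an interaction. For none of the 10 genes did it pass in edgeR or DESeq2, with 0.00952%, 0% and 0.914% of all genes called for the KAT6A, KAT6B and double knockout. At an unadjusted p under 0.05 the count was 1 of 10 for each (9.11%, 13.6% and 19% of all genes). For Amn in the double knockout the change of the effect was -2.01 ± 0.72 (adjusted p = 0.165). Without KAT6B knockout replicate 1 of day 15, 0 of these genes were called in the pairs of day 15 or for the change of the KAT6B knockout effect.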

How the data were processed

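RNA-seq counts of 48 libraries were analysed. Per the labels' protocols, 1 µg of RNA per sample was freed of rRNA, and directional libraries were read as 150 bp pairs. The authors deposited raw counts per gene from reads aligned with HISAT2 to GRCm39, per the submitters' processing notes. No source used here names the counting program or the annotation. Of 36983 entries, 48 with a repeated identifier were left out. Totals were 22.5 to 72.23 M counts.

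Counts were fitted in edgeR 4.0.16 (R 4.3.3) with its expression filter (minimum count 10, minimum total 15), TMM scaling and robust quasi-likelihood F tests, with Benjamini-Hochberg adjustment over all genes of a comparison. The 12 E14 libraries gave 3 comparisons, the 12 libraries of each day gave 12 knockout comparisons with E14 and 6 between knockouts, and 3 interactions were tested. The script was tested on simulated data. Standard errors were taken from the fold change and the F statistic. Replicates were 3 separate differentiations, per the series' design text.

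Genes, lists and rules were chosen with earlier results of these data known. All 10 genes are named. From other lists, up to 3 called genes of largest change were eligible. Genes of highest mean stood in where none was called. One gene eligible by this rule is not reported here. Alb, Cyp2e1 and Kcnj13 were named after their values were seen. Alternatives were RLE size factors, no filter, DESeq2 1.42.0, a replicate block and leaving out each library.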

Additional observations from a re-analysis of the deposited data

Results flagged for a closer look

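In the double knockout, Apob differed from E14 by 0.75 on the log2 scale at day 0, where each of the 3 double knockout libraries was above each E14 library. The margin was 4.37 against 4.36 CPM, so this separation was a near tie. At day 15 the difference was -1.21, and each double knockout library was below each E14 library. The share of all genes without overlap was not counted, and the difference between days 0 and 15 was not tested. Neither the day 0 nor the day 15 value passed in edgeR's quasi-likelihood test (adjusted p = 0.217 and 0.0962).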

How the results depend on the processing

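Of the 10 genes in the E14 time course, 3, 7 and 7 were called in its 3 steps. RLE size factors and no filter on low counts gave the same counts, DESeq2 gave 3, 7 and 8 (adding Ttr from day 6 to day 15), and the replicate block gave 4, 7 and 8 (adding Apoe at day 2, 0.66, adjusted p = 0.0296, and Ttr from day 6 to day 15, -1.37, adjusted p = 0.0123). Leaving out 1 library gave 2 to 4 calls at day 2, 7 at day 6 and 7 to 8 at day 15. Signs turned only for uncalled changes when a library was left out: Amn at day 2 (-0.33 to 0.81), Apoe (-0.18 to 0.38), Trf (-0.77 to 0.17) and Amn (-0.17 to 0.99) at day 6, and Cubn (-0.87 to 0.11) and Amn (-0.57 to 0.22) from day 6 to day 15. No scaling moved the median of all genes by more than 0.04.

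Against E14, DESeq2 called 1 of the 10 genes in the double knockout at day 2, 1 in the KAT6B knockout at day 6, 1 in each single knockout at day 15 and 2 in the double knockout at day 15, where edgeR called 0, 0, 0 and 1. Between knockouts at day 6 it called 1 for the double against the KAT6A knockout and 3 against the KAT6B knockout, where edgeR called 0. Leaving out a library gave 0 to 1 call for the double against the KAT6A knockout at day 6, and 0 for the double knockout against E14 at day 15.

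The labels do not say that a replicate number marks a shared experiment, and in no fit did every same-number pair correlate above 0.1, so the samples were treated as sharing only a number. In E14 the median correlation of such pairs was 0.096, with 8 of 18 over 0.1, and at day 6 it was 0.262, with 13 of 18 over 0.1. As a hint from the data, 10 of 12 E14 libraries and 9 of 12 day 6 libraries correlated best with their own number, and 4 of 12 did at day 15. With the replicate block, Amn in the double knockout at day 15 had -2.17 (adjusted p = 0.0894), so 0 of the 10 genes were called there. Over all genes the block gave, beside the count without it, 26 against 2 (KAT6B, day 0), 605 against 395 (double, day 0), 1 against 2 (KAT6A, day 2), 371 against 6 (KAT6B, day 6), 39 against 14 (double, day 6), 194 against 0 (double against KAT6B, day 6), 6 against 2 (KAT6B against KAT6A, day 6), 0 against 15 (KAT6B, day 15), 0 against 643 (double, day 15), 0 against 1 (double against KAT6A, day 15), and 1 against 2 and 61 against 0 for the change of the KAT6A and KAT6B effects.

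DESeq2 called more genes in all. For KAT6A, KAT6B and double knockout against E14 it called 7, 233 and 1125 genes at day 0 (edgeR 0, 2 and 395), 35, 23 and 658 at day 2 (2, 0 and 220), 3, 548 and 256 at day 6 (0, 6 and 14), and 335, 1839 and 2724 at day 15 (0, 15 and 643). For double against KAT6A, double against KAT6B and KAT6B against KAT6A it called 11, 658 and 429 at day 6 (2, 0 and 2) and 71, 77 and 33 at day 15 (1, 0 and 0). For the change of the KAT6A, KAT6B and double effects it called 77, 906 and 1474 (2, 0 and 195). Without the filter the counts were 2 and 48 at day 0 (KAT6A, KAT6B), 4 at day 2 (KAT6B), 59 and 33 at day 6 (KAT6B, double), 96 (double against KAT6B, day 6), 5 (KAT6B against KAT6A, day 6) and 1 (change of the KAT6B effect). RLE size factors gave 2 for KAT6B at day 6 and 1 for that change. The cause of these differences was not tested.

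Leaving out 1 library, counts over all genes ranged from 1985 to 5481 (E14, day 2), 8770 to 9913 (day 6) and 9935 to 10717 (day 15). Against E14 they were 0 to 1, 0 to 1164 and 80 to 1940 at day 0 for KAT6A, KAT6B and double, the highest ones without E14 replicate 2. They were 0 to 1, 0 to 3 and 7 to 263 at day 2, 0, 0 to 3 and 0 to 11 at day 6, and 0, 0 to 1946 and 0 to 102 at day 15, with 1946 reached without KAT6B knockout replicate 1. Between knockouts at day 6 they were 2 to 3, 0 to 1 and 0 to 4, and at day 15 0 in each pair. For the changes they were 0 to 2, 0 to 1287 and 7 to 429. Depth limits Afp and Ttr at day 0, and Apoa1 and Apoa2 at days 0 and 15, where groups hold few counts.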
